A study of Homo sapiens with 3 samples.

Results

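The 10 genes ENG, ACVRL1, BMPR2, TGFBR1, TGFBR2, SMAD1, SMAD6, SMAD7, ID1 and ID3 encode receptors, signal carriers, inhibitors and targets of BMP and TGF-beta signalling in endothelium. They were chosen by symbol, and all 10 were found among the 20037 protein-coding genes that RefSeq places on the chromosomes of GRCh38.p14. Their chromatin was described from 1 ATAC-seq library of hCMEC/D3, human endothelium of small brain vessels that was immortalized and is kept as a cell line. The cells were at passages 4 to 6 and confluent on plates coated with rat tail collagen. The labels give no second cell type or treatment, and the study's 2 RNA libraries were not used here, because their tables list transcripts that the tables used here do not link to genes. With 1 library there is no replicate error and no test between groups, so all values below describe this library. As a model, a line grown on plates lacks the blood flow and the neighbouring brain cells that vessels have in the body.

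BMP and TGF-beta ligands bring together a pair of type II and a pair of type I receptors, both serine/threonine kinases. The type I receptor then phosphorylates receptor SMADs, which enter the nucleus with SMAD4 and bind DNA. In endothelium, BMP9 and BMP10 act through the type I receptor ACVRL1 (ALK1) with BMPR2 and the co-receptor ENG (endoglin), and signal mainly through SMAD1, SMAD5 and SMAD9. TGF-beta acts through TGFBR2 and TGFBR1 (ALK5), mainly by SMAD2 and SMAD3. Inherited loss of ENG or ACVRL1 causes hereditary haemorrhagic telangiectasia, and loss of BMPR2 causes heritable pulmonary arterial hypertension.

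The sequences directly before the annotated start are shown for 6 members, to set windows inside a peak beside one, that of SMAD7, outside any. They comprise the co-receptor ENG, the receptor BMPR2, both inhibitory SMADs and both ID genes, and each is the 250 bases before the outermost start, read 5′ to 3′ on the gene's own strand from RefSeq promoters of GRCh38.p14. Capitals mark the SMAD box (GTCT, or AGAC on the other strand), the GC-rich motif GGCGCC bound by BMP-activated SMADs, and the ETS core GGAAGT, which reads ACTTCC on the other strand.
ENG, chr9:127854659-127854908, minus strand: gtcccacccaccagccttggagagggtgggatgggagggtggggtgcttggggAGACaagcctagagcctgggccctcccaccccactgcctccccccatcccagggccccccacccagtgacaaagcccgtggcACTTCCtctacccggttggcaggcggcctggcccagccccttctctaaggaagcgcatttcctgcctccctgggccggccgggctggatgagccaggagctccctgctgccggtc
BMPR2, chr2:202376077-202376326, plus strand: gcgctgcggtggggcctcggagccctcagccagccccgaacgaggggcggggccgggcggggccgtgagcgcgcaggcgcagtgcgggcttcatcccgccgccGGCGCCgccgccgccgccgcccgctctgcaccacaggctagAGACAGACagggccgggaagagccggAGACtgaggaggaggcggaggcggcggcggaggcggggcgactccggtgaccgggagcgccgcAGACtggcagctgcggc
SMAD6, chr15:66701986-66702235, plus strand: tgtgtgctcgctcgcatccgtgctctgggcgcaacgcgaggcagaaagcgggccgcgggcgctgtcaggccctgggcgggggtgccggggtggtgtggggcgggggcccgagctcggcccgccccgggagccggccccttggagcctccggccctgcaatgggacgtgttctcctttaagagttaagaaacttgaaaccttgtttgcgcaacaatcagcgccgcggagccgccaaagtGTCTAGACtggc
SMAD7, chr18:48950966-48951215, minus strand: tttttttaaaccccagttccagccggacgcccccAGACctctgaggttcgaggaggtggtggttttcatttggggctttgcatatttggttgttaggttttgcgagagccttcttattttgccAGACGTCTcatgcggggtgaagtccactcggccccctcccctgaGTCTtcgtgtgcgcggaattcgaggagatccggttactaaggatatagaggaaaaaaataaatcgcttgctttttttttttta
ID1, chr20:31605039-31605288, plus strand: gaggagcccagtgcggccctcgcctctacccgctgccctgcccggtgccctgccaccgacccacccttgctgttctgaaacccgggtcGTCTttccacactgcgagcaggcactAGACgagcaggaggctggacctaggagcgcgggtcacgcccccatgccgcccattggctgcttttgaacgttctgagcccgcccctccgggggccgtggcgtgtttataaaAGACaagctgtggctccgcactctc
ID3, chr1:23559502-23559751, minus strand: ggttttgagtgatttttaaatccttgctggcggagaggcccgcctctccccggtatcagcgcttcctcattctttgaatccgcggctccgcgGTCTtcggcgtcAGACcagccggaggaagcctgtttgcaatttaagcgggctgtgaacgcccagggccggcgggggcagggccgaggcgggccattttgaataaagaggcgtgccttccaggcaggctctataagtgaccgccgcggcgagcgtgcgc

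Of these 6 windows, those of BMPR2, SMAD6, ID1 and ID3 lay wholly within an accessible region, with all 250 bases inside a peak. For ENG, 176 of the 250 bases did. For SMAD7, none did. Near its end, the SMAD6 window holds GTCTAGAC, the palindromic SMAD element. It spans bases 12 to 5 before the start and consists of a SMAD box on each strand. Over all 22199 RefSeq promoter windows of protein-coding genes, 0.207% hold these 8 letters on either strand, which read the same on both. The SMAD box alone is common: 76.1% of those windows hold GTCT or AGAC, as did the outermost window of each of the 9 members in the promoter table. GGCGCC, held by 20.7% of windows, was found in 1 outermost window, that of BMPR2, where it begins 147 bases before the start. It was also found at inner starts, with 2 copies in each of 2 windows of SMAD1 and 2 copies in a window of TGFBR1, all 3 windows wholly within a peak. GGAAGT, held by 20.5%, was found in 1 outermost window, that of ENG, where ACTTCC begins 115 bases before the start, and in a window of TGFBR1 at an inner start. These are letter matches and no measurement of binding.

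All 10 members had a peak at an end of the gene, meaning within 1 kb of either end (100%, 95% Wilson interval 72.2% to 100% over genes), compared with 72.8% of all protein-coding genes. The interval's lower bound lay just below that background. The members were chosen by name with earlier results known and not drawn at random, so this is no test. The wider window of the gene and 10 kb on either side contains both ends, so all 10 had a peak there too (background 89.8%). These windows held 97 peaks in all, of which 17 lay at gene ends, 55 inside genes and 25 in the flanks. For all protein-coding genes the corresponding shares of such peaks were 19.7%, 53.9% and 26.4%, against 17.5%, 56.7% and 25.8% here, so the division among positions was much the same. Peaks inside the gene were found for 8 members (background 55.9%), all but ID1 and ID3, which are 1.22 and 1.58 kb long and have no base more than 1 kb from an end. Peaks in the flanks were found for 9 members (background 65.6%), all but TGFBR1. Pileup is the level of overlapping tags, 1 value per broad peak, that the peak caller reports, and it need not be a whole number. Member peaks were from 200 to 1892 bp wide, and pileups were compared without adjustment for width. In a bulk library, fewer cells with an open site and less opening per cell cannot be told apart.

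**Figure D1:**
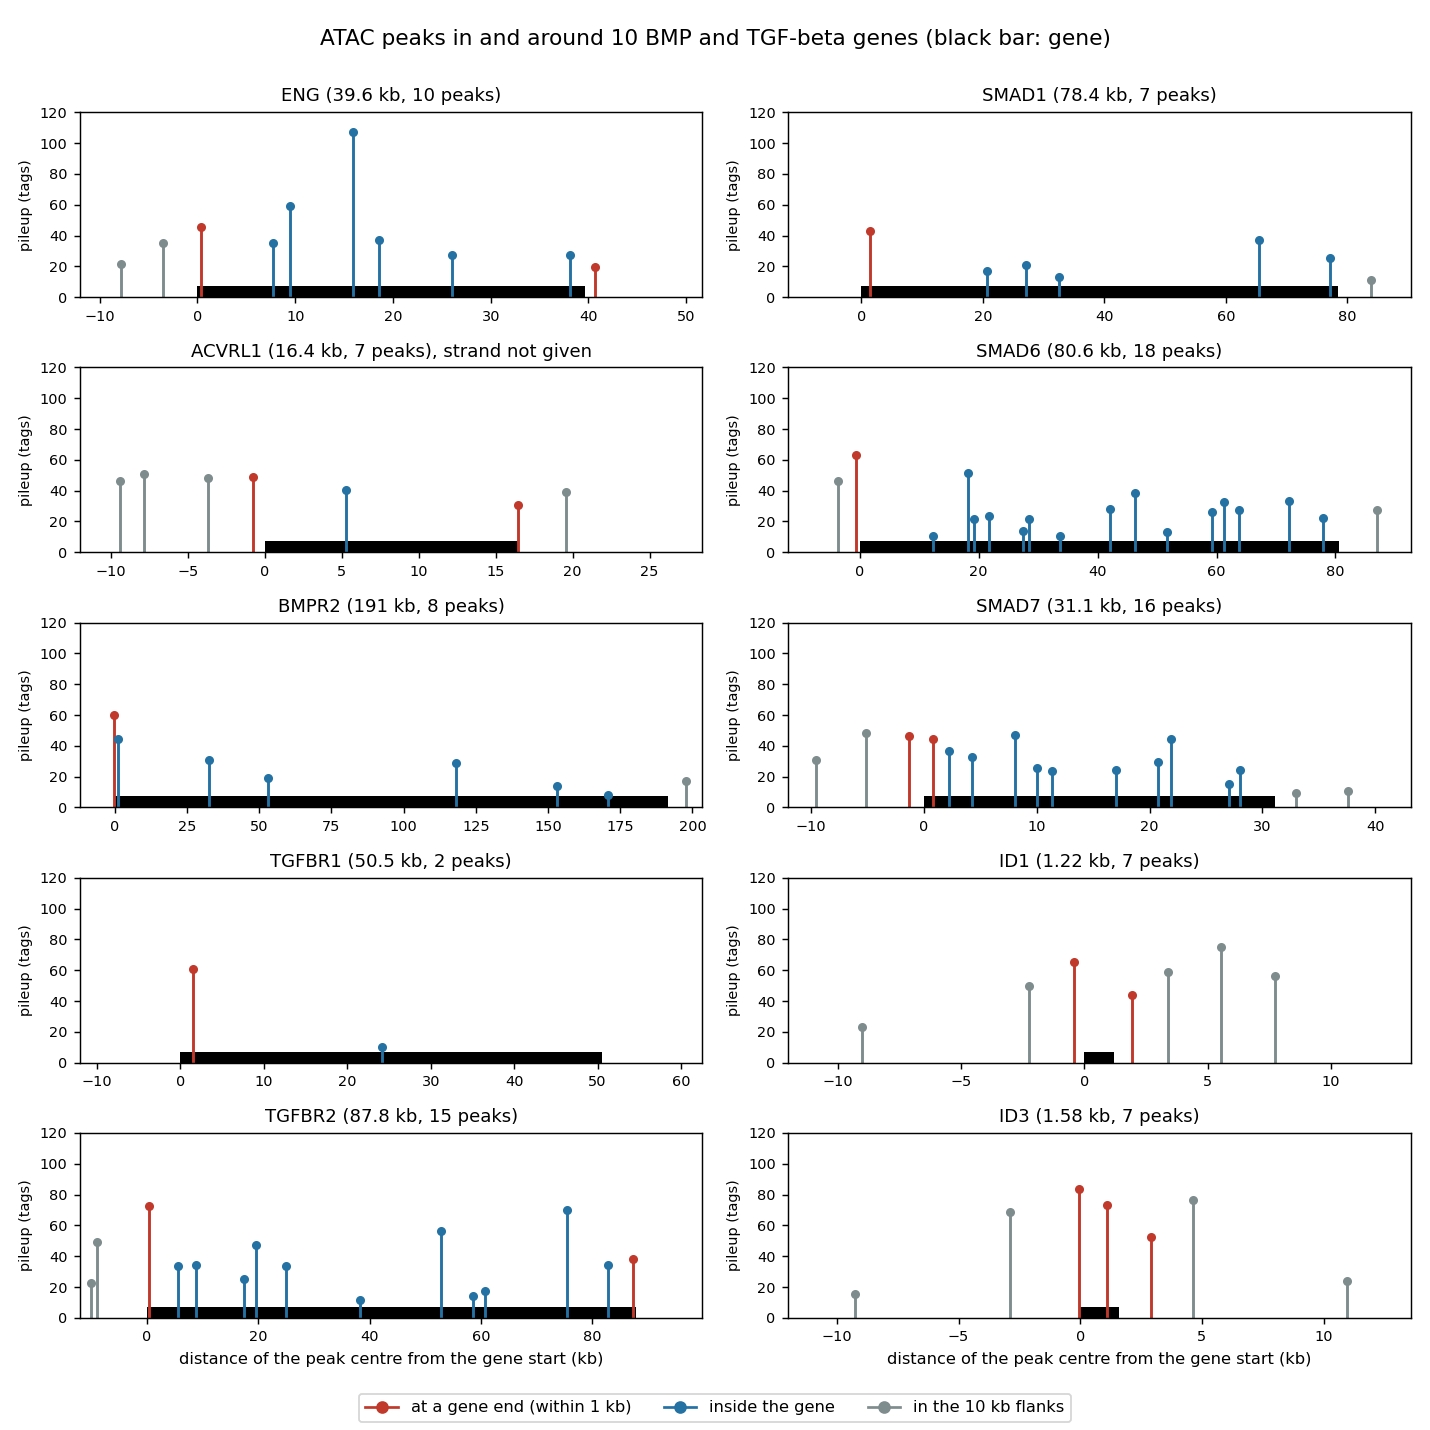
ATAC peaks in each of the 10 genes and 10 kb on either side. The x axis is the distance of the peak centre from the gene's start in kb, read along the gene (for ACVRL1, whose strand is not in the tables used here, from the end of lower coordinate). The y axis is pileup in tags, stems are single peaks coloured by position, and the black bar is the gene. ENG has its highest peak, of 107 tags, inside the gene, TGFBR1 has 2 peaks in all, and SMAD6 and SMAD7 carry 18 and 16 along their length.

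The number of peaks was then set against protein-coding genes of similar length, meaning from 20% shorter to 25% longer than the member. In 8 of 10 members the count exceeded the median of such genes, as it did in 42.4% of all protein-coding genes. The exceptions were BMPR2 and TGFBR1. The share of bases covered by peaks gave the same 8 members (background 49.8%). Genes are not replicates, and these counts carry no test.

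**Figure D2:**
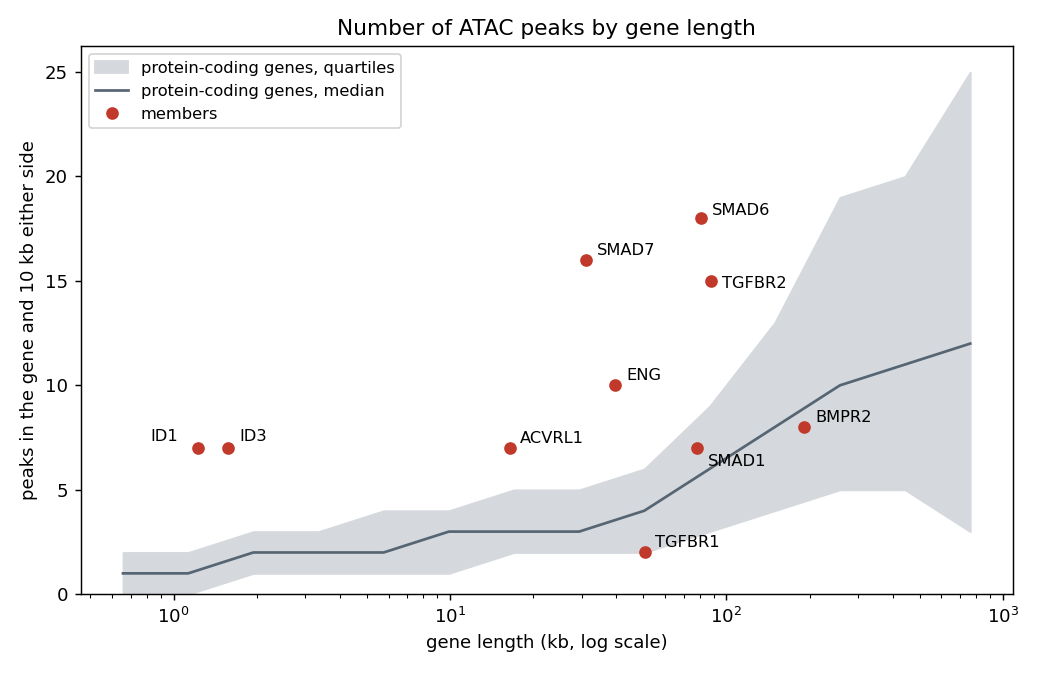
Number of peaks in the gene and 10 kb on either side (y axis) by gene length in kb on a log scale (x axis). The line and band are the median and quartiles of protein-coding genes in bins of length, and the points are the members. ID1, ID3, ACVRL1, ENG, SMAD7, SMAD6 and TGFBR2 lie above the band, SMAD1 and BMPR2 within it, and TGFBR1, with 2 peaks, at its lower edge.

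Among the receptors, ENG had 10 peaks along 39.6 kb and its flanks, where 2215 genes of similar length had a median of 4 (quartiles 2 and 6). At least 10 peaks were found at 4.97% of these. With a fold of at least 4 the count of ENG was 3, and with 25 kb flanks 17. The highest lay inside the gene, at chr9:127838351-127839178, with 107 tags and a fold of 7.08. Fold sets the pileup against the level of tags around the peak, called local background below. With no control library, this level comes from the same library and can include tags of the peak and its neighbours. Over all peaks of the library, 36.8% had a fold below 3.97 and 38.5% a fold below 4.03. Only 135 of the 106415 peaks of the library had a higher pileup than the ENG peak of 107 tags. Its nearest edge is 15480 bp downstream of the annotated start, and the tables used here do not say whether it is exonic or intronic. The peak over the start itself, chr9:127853818-127854834, was lower, with 45.4 tags and a fold of 3.80. Between these, 9.43 kb downstream of the start, lay a peak of 58.9 tags with a fold of 4.25. The start peak lay close to the median of similar genes, 48.3 tags, and 55.9% of those with an end peak had at least as high a pileup. At the far end of ENG, a peak of 19.4 tags also overlapped the neighbouring gene FPGS and cannot be assigned to either.

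ACVRL1 encodes the type I receptor that pairs with ENG. It had 7 peaks, compared with a median of 3 (quartiles 2 and 5) over 2214 genes of similar length, 6.50% of which had at least 7. With 25 kb flanks it had 11. These peaks covered 16.2% of its 36.4 kb window, against a median of 5.95%, and 0.994% of similar genes reached that share. Pileup was even along the locus, from 30.4 to 51.1 tags. The peak nearest the end of lower coordinate, chr12:51905568-51906748, had 48.8 tags, and its edge stopped 196 bp short of the annotated gene. Its highest peak, of 51.1 tags, lay 7.84 kb outside that end, within the pseudogene LOC102724178. ACVRL1 had no peak with a fold of 4 or more, and the local background of its peaks ran from 10.3 to 15.1 tags, compared with a median of 3.32 over all peaks.

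BMPR2, the type II receptor, is the longest member at 191 kb and had 8 peaks, near the median of 9 (quartiles 5 and 15) for 897 genes of its length. Its start lay in a peak of 1892 bp, the widest of the 97, at chr2:202375010-202376901, with 60.2 tags and a fold of 3.31. At least that pileup was found at the ends of 20.2% of similar genes with an end peak. The remaining peaks were lower, from 8.25 to 44.6 tags. The weakest, 8.25 tags at 171 kb from the start, was close to 8.0 tags, the lowest pileup called in the library. The longest stretch without a peak was 64.6 kb. Of the 8 peaks, 5 had a fold of at least 4, close to the share over all peaks of the library. A peak 118 kb from the start, chr2:202494269-202494688, had 28.9 tags. Its fold of 8.65 was the highest among the members, over a local background of 2.45 tags.

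The receptors for TGF-beta differed from each other in the number of peaks. TGFBR1 (50.5 kb) had 2 peaks, fewer than the median of 4 (quartiles 2 and 6) at similar length, and 88.1% of 2207 such genes had at least as many. Its longest stretch without a peak, 36.2 kb, took up 51.3% of the window. TGFBR2 (87.8 kb) had 15, against a median of 6 (quartiles 3 and 9), a number reached by 5.03% of 1691 such genes. With a fold of at least 4, TGFBR1 had 1 and TGFBR2 had 9. These are counts in 1 library, and whether the receptors differ beyond replicate error cannot be told.

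At the start, TGFBR1 had 60.8 tags with a fold of 5.43 at chr9:99104515-99105895, and TGFBR2 had 72.6 tags with a fold of 4.64 at chr3:30606139-30607421. The TGFBR1 peak held 5 of 8 annotated starts and began 868 bp downstream of the outermost. The TGFBR2 peak held both annotated starts and also overlapped the neighbouring gene LOC105377015. The second peak of TGFBR1, 24.2 kb from the start, had 9.89 tags. In TGFBR2 a peak of 70.2 tags and a fold of 6.35 lay 75.5 kb from the start, at chr3:30681345-30682442, nearly as high as the peak over the start. A further peak 8.93 kb upstream had 49.2 tags and a fold of 8.58.

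SMAD1, the receptor SMAD that carries the BMP signal, had 7 peaks along 78.4 kb, against a median of 5 (quartiles 3 and 8), and 38.0% of 1767 similar genes had at least 7. Its end peak, chr4:145481462-145483085, held 4 of 5 annotated starts, with 42.9 tags and a fold of 4.17. This was the lowest end peak among the members' highest, below the median of 46.7 tags for similar genes. The outermost start lay 156 bp outside it. Inside the gene the pileup ran from 13.0 to 37.0 tags. The local background was low, with a median of 2.47 tags over the 7 peaks, and 6 of them had a fold of at least 4. That median is close to 2.37 tags, the lowest background in the library, at which 34.6% of all peaks lay.

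The inhibitory SMADs had the highest counts of peaks among the 10 genes when all called peaks were counted, but not under stricter filters. With −log10 q of at least 5, TGFBR2 had 12, SMAD6 11, and SMAD7 and ENG 8 each. With a fold of at least 4, TGFBR2 had 9, SMAD6 7, SMAD1 6 and SMAD7 3. SMAD6, which blocks mainly BMP signalling, had 18 peaks along 80.6 kb, against a median of 5 (quartiles 3 and 8), and 16 of 1718 similar genes (0.931%) had at least 18. Of its peaks, 15 lay inside the gene, a number reached by 0.815% of similar genes. The peak over its start, chr15:66700871-66702444, was the highest, with 63.1 tags and a fold of 3.47, and contains the window with GTCTAGAC shown above. The next highest, 51.5 tags with a fold of 7.27, lay 18.2 kb downstream at chr15:66720240-66720629. The other inside peaks were lower, from 10.6 to 38.4 tags, on both sides of the library median of 21.6 tags. No other annotated gene overlapped any of its peaks.

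SMAD7, which blocks both branches of the pathway, had 16 peaks along 31.1 kb, against a median of 4 (quartiles 2 and 5). Of 2318 genes of similar length, 1 had as many, LTBP4 with 16, which encodes a binder of latent TGF-beta and is named after its value was seen. This standing is that of all called peaks. The count of SMAD7 was 8 with −log10 q of at least 5 and 3 with a fold of at least 4. Both counts still exceeded the median of similar genes under the same filter. The rank of SMAD7 among those genes after filtering was not computed. Pileup ran from 9.50 to 48.3 tags, with no peak standing far above the rest. The outermost SMAD7 start was not inside a peak. It lay between a peak 576 bp upstream, chr18:48951541-48952956, with 46.3 tags, and a peak 481 bp downstream, chr18:48949781-48950484, with 44.7 tags. Of its 3 annotated starts, the innermost, 8158 bp downstream of the outermost, was inside a peak, chr18:48942484-48943233, with 47.1 tags and a fold of 4.22. When the end peak of highest fold was taken for each member, SMAD7 had the lowest value of the 10, 2.59, and 99.4% of similar genes with an end peak had a fold at least as high.

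ID1 and ID3 are direct targets of BMP-activated SMADs and encode proteins that bind basic helix-loop-helix factors and keep them from DNA. Both are short, and each had 7 peaks within 10 kb. With a fold of at least 4, ID1 had 1 peak and no longer exceeded the median of its length, and ID3 had 2. With 25 kb flanks they had 11 and 13. For ID1 the median of 412 similar genes was 1 peak (quartiles 0 and 2), and 2 of them had 7, C11orf96 and ZNRD2. For ID3 the median of 512 genes was 2 (quartiles 0 and 3), and 2 had 7, IFITM2 and ZNRD2. These 3 genes are named after their values were seen. Most of the peaks lay outside the genes, 5 of 7 for ID1 and 4 of 7 for ID3 more than 1 kb away from either end.

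The ID1 start lay in a peak of 1431 bp, chr20:31604170-31605600, with 65.2 tags and a fold of 3.02, which also overlapped the long noncoding RNA gene LOC105372588. A higher peak lay 5.53 kb downstream, chr20:31610539-31611090, with 75.0 tags and a fold of 4.03. The peak at the far end of ID1, with 43.9 tags, overlapped the microRNA gene MIR3193 and had a fold of 1.67, the lowest of the 97. The ID3 start lay in a peak of 525 bp, chr1:23559288-23559812, with 83.7 tags and a fold of 2.77. This was the highest end peak among the members, and 7.0% of similar genes with an end peak reached it. It was followed by peaks of 73.3 tags at 1.08 kb, 52.4 tags at 2.91 kb and 76.2 tags at 4.65 kb downstream, and 68.4 tags lay 2.91 kb upstream. All ID3 peaks overlapped the long noncoding RNA gene LOC124903876, so they are not particular to ID3 by annotation. The downstream peaks of 76.2 and 23.6 tags also overlapped LOC105376859.

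At least 1 annotated start was inside a peak in each of the 9 members with a promoter entry (background 68.7%). The outermost start was inside a peak in 6 of 9 (background 65.2%), the exceptions being TGFBR1, SMAD1 and SMAD7. The peak of highest pileup lay at a gene end in 6 of 10 members (background 48.3%). In ENG it lay inside the gene, and in ACVRL1, SMAD7 and ID1 in the flanks. In these 3 genes the highest end peak had 48.8 (ACVRL1), 46.3 (SMAD7) and 65.2 tags (ID1), against 51.1, 48.3 and 75.0 tags in the flank, differences for which no replicate error is known.

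Pileup and fold placed the members differently. The highest end peak exceeded the median pileup of similar-length genes with an end peak in 7 of 10 members (background 50.0%). The others were ENG, SMAD1 and SMAD7, within 4 tags of that median. By the end peak of highest fold, which need not be that of highest pileup, 2 of 10 exceeded the median, TGFBR1 and TGFBR2 (background 50.0%), and both lay close to it, at 5.43 against 5.37 and 5.42 against 5.17. For TGFBR2 this was the peak of 38.2 tags at its far end, and the fold of 4.64 at its start was below the median. The remaining 8 were below the lower quartile of genes of their length. The local background, computed from pileup and fold and so no separate measurement, was high. The 17 end peaks of the members had a median of 16.7 tags, against 7.24 for end peaks of all protein-coding genes. Their median pileup was 48.8 tags against 40.1, and their median fold 3.02 against 4.71.

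**Figure D3:**
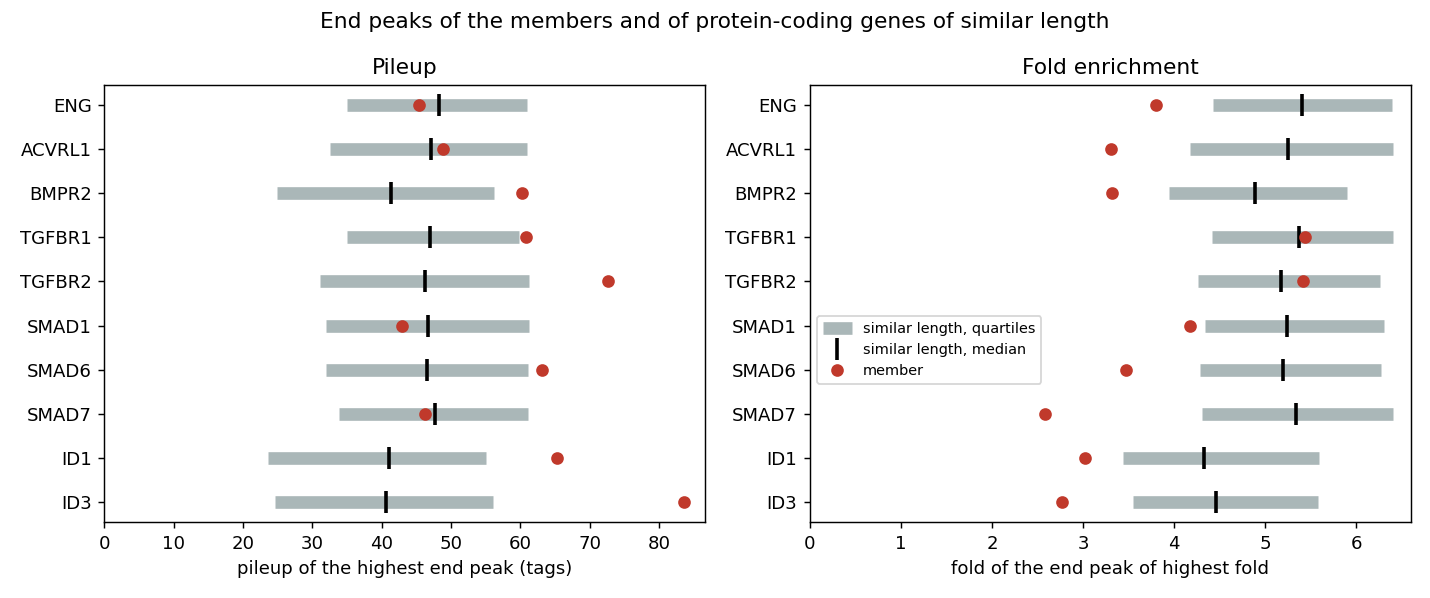
Pileup in tags of the highest end peak (left) and fold of the end peak of highest fold (right) for each member (points). Grey bars and black ticks are the quartiles and medians of protein-coding genes from 20% shorter to 25% longer that have an end peak. Pileup is above the median in 7 of 10 members, whereas fold is above it in 2, TGFBR1 and TGFBR2.

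The local background differed by position and by locus. Its median was 16.7 tags over the 17 end peaks, 10.3 over the 25 in flanks and 6.22 over the 55 inside genes. Within BMPR2 alone it ran from 2.37 to 18.2 tags. Over the 14 peaks of ID1 and ID3 it had a median of 19.4 tags and reached 30.9, with 99.9% of all peaks lower, and 13 of the 14 exceeded the library median of 3.32. Over the 42 receptor peaks the median was 9.06, over the 34 peaks of SMAD6 and SMAD7 7.73, and over the 7 of SMAD1 2.47. Of all 97 peaks, 78 exceeded the library median of the background and 74 the library median of pileup, 21.6 tags, while 25 exceeded the library median of fold, 4.49. The caller estimates this background from tags over a range of 10000 bp, and it does not fall below a floor of 2.37 tags. Peaks covered 17.5% of the ID1 window and 21.95% of the ID3 window, against medians of 2.63% and 4.53% for genes of similar length. The part of this close spacing in the low folds was not tested.

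**Figure D4:**
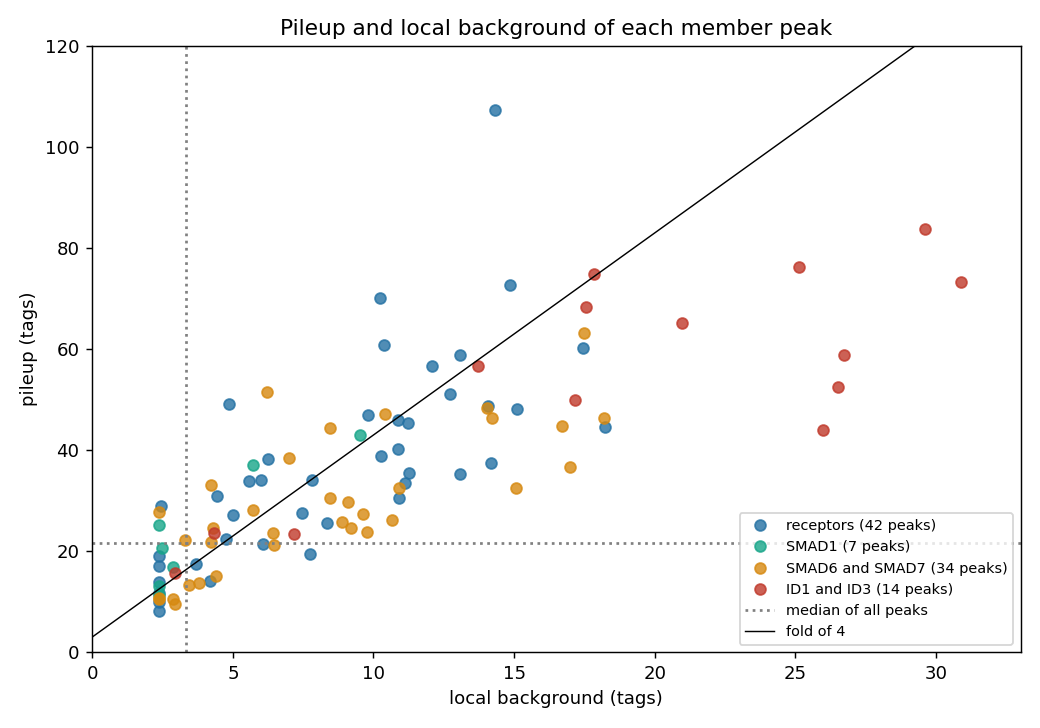
Pileup (y axis) against local background (x axis), both in tags, for each of the 97 member peaks, coloured by group of genes. Dotted lines are the medians of all peaks of the library, and peaks below the solid line have a fold under 4. Peaks of ID1 and ID3 combine high pileup with backgrounds of up to 30.9 tags and fall mostly under the line, while those of SMAD1 lie at low background and mostly on or above it.

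The other genes of the pathway, 47 in 6 lists, were placed in the same way. Of these, 43 (91.5%) had an end peak (background 72.8%), and 30 of 47 had more peaks than the median of their length (background 42.4%). Of the 6 BMP ligands 4 had an end peak, with a range from 13.0 tags at BMP2 to 70.7 tags at BMP6. GDF2, which encodes BMP9, and BMP7 had none. All 5 genes of TGF-beta and activin ligands had an end peak, from 15.7 tags at INHBB to 63.2 tags at TGFB2, which had 18 peaks in all.

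Of 11 other receptors and co-receptors, 10 had an end peak, from 9.76 tags at BMPR1B to 60.4 tags at ACVR1. The exception was TGFBR3 (betaglycan), a TGF-beta co-receptor related to ENG, which had 20 peaks inside its 226 kb and none at an end. All 5 other SMAD genes had one, from 21.7 tags at SMAD9 to 59.7 tags at SMAD3, the latter with 28 peaks in its window. So did all 12 regulators, from 13.5 tags at the BMP antagonist CHRD to 83.6 tags at the SMAD co-repressor SKI. Of 8 other target genes 7 had one, from 23.9 tags at TMEM100 to 77.9 tags at ID2. The exception was ID4, with 1 peak in a flank. The median highest end peak was 38.3 tags over the 43 genes, 60.5 tags over the 10 members and 45.7 tags over all protein-coding genes with an end peak. The members were picked as known endothelial genes of the pathway, and no test of the difference was made.

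The whole library gave 106415 peaks from 22188172 tags. The labelled cell type was checked on short marker lists by end peaks: 7 of 7 endothelial genes, 3 of 4 leukocyte, 3 of 4 mural, 3 of 5 neuronal and glial, and 2 of 3 epithelial genes had one. CDH5 (VE-cadherin) had the highest end pileup of the endothelial list, 62.7 tags, and ERG the lowest, 10.98 tags. With 72.8% of all protein-coding genes holding an end peak, peak presence alone separates cell types poorly, and end peaks of CD68 (93.6 tags) and KRT8 (77.4 tags) were higher than that of CDH5.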

How the data were processed

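Per the file headers, the authors called broad ATAC peaks with MACS 2.2.7.1 on 1 library without a control, in single-end mode, with tags shifted by -100 bp, extended to 200 bp and kept once per position, at q of 0.05 (strong) and 0.1 (broad). Of 31532245 tags, 22188172 remained. The genome size given, 1870000000 bp, is the caller's mouse preset. The deposited values of a peak are its width in bp, its pileup signal, its fold (a ratio), and −log10 of its p-value and of its q-value. The submitters' processing notes name Bowtie2, SAMtools 1.13, Picard and the builds GRCh38 and mm10 without roles. The peak list, with 24 human chromosomes, was read as GRCh38.

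Peaks were placed with Python 3.11.15, pandas 2.3.3 and numpy 2.4.6 in this order: at a gene end (overlap of at least 1 bp with 1 kb either side of either end), inside the gene, or in its 10 kb flanks. The placement was tested on simulated narrow peaks set away from the borders of these classes. That test does not cover peaks that straddle a border, or genes as short as ID1 and ID3. Strand and start sites came from the RefSeq promoter table. It had entries for 9 members, and ACVRL1 was placed by coordinate. Local background was computed as (pileup + 1) / fold − 1, where 1 tag is the caller's added count. Its lowest value, 2.37 tags, equals the floor from the tags and genome size, and so rests on the mouse preset. Similar genes were from 20% shorter to 25% longer. Members and lists were chosen with earlier results of these data known. All 10 members are named. Other pathway genes are named where they lacked an end peak or had the highest or lowest end pileup of their list. Depth was fixed by 1 library, so intervals cover the number of genes only. RNA tables were not used here, because no table links their transcripts to genes. Alternatives covered windows, flanks, peak filters, overlap and length range.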

Additional observations from a re-analysis of the deposited data

How the results depend on the processing

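Of 77 alternative values, 57 stayed within 1.5-fold of the reported value and 20 moved, 16 of these among the 50 counts of peaks for single members. Keeping peaks with a fold of at least 4 lowered the members with an end peak from 10 to 3 (TGFBR1, TGFBR2 and SMAD1; 56.0% of all protein-coding genes kept one), the peaks over all members from 97 to 37, and the members above the median end pileup from 7 to 2 (TGFBR1 and TGFBR2). By fold in place of pileup, an alternative chosen after seeing the data, the last count was also 2. Over all peaks of the library, 38.5% had a fold below 4.03, a smaller share than the member peaks lost. With −log10 q of at least 5, all 10 members kept an end peak (all genes, 66.7%) and 69 peaks remained. With windows of 500 bp, 8 members had an end peak (not TGFBR1 and SMAD1; all genes, 69.2%), and with an overlap of at least 200 bp, 9 (not TGFBR1; all genes, 71.5%). The members with more peaks than genes of similar length ran from 6 (fold of at least 4, without ACVRL1 and ID1; all genes, 38.1%) to 9 (−log10 q of at least 5; all genes, 42.2%), with TGFBR1 not above in any setting run. Counting starts inside a peak, and covered bases in place of peaks, were also chosen after seeing the data. The planned transcript levels were not run. No paired analysis was possible because 1 ATAC library was used and no groups were compared. The lowest pileup called was 8.0 tags, so weaker sites were not detectable.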
